A study of Caenorhabditis elegans with 2 samples.

Results

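Unclassified noncoding RNA genes with a binding site of their own were examined in a chromatin immunoprecipitation (ChIP-seq) map of the Myb-like domain protein of B0261.1, listed as vep-1 in the annotation, in C. elegans. A member was a gene of biotype ncRNA in the RefSeq annotation of WBcel235 (build ce11) with a reproducible peak summit within 100 bp. That summit had to lie over 100 bp from every tRNA, tRNA pseudogene, snoRNA, snRNA, rRNA and miRNA gene. It also had to lie outside the window from 500 bp upstream to 100 bp downstream of each protein-coding gene start. The rule left 71 of 7762 ncRNA genes, or 0.915%, at 62 of 1550 peaks. The genes were thus selected on the deposited peak positions, and the signals and ranks below describe them and were not tested.

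In the annotation, ncRNA is the class left for transcripts that are neither messenger RNAs nor one of the named small RNA types. Many of its entries are short transcripts known by a sequence name alone, but it also holds the RNA of RNase P, which trims the 5′ end of tRNA precursors, and the RNA of the signal recognition particle (SRP), which brings ribosomes to the endoplasmic reticulum. In animals both of these RNAs, like tRNAs and the U6 RNA of the spliceosome, are made by RNA polymerase III. tRNA genes carry promoter elements inside the transcribed part, the A box and the B box, whereas the RNase P RNA gene is read from elements upstream of its first base. RNA polymerase III ends transcription at short runs of T.

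Both libraries came from whole young adults of strain OP662, which carries unc-119(tm4063) III and the transgene array wgIs662. The array encodes B0261.1 with GFP and FLAG at its C-terminus, and an antibody against GFP was used. Males and females were pooled and collected 64 hours after larvae were synchronised by starvation, and the replicates are numbered 1 and 3. All animals carried the transgene, there was no second condition, and the control libraries were not analysed here. In whole animals a site bound in few cells and a site bound weakly in many cannot be told apart.

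The authors' list of peaks that passed their threshold on the irreproducible discovery rate (IDR) held 1550 peaks with a signal of 179 to 15652. The list of replicate 1 held 23931 regions and that of replicate 3 held 30000. Read depth was not given in the files used here, and the signal value has no stated normalization. Signals are therefore set side by side only within a list, and the replicates are compared by rank, where 1 is the highest signal. Regions of a list can overlap and hold neighbouring summits.

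The member peaks covered nearly the whole range of the IDR list short of its top. Their signal ran from 179 to 4635 with a median of 440. The median was 504 over all IDR peaks, 2510 over the 513 peaks within 100 bp of a tRNA gene and 297 over the 975 peaks in neither set. The 18 strongest member peaks had a signal of 1042 or more, and the next, at T22A3.11, had 657. All 18 ranked between 92 and 790 in both replicate lists. Groups of members described below by a shared sequence or neighbour were formed after the data were seen.

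**Figure D1:**
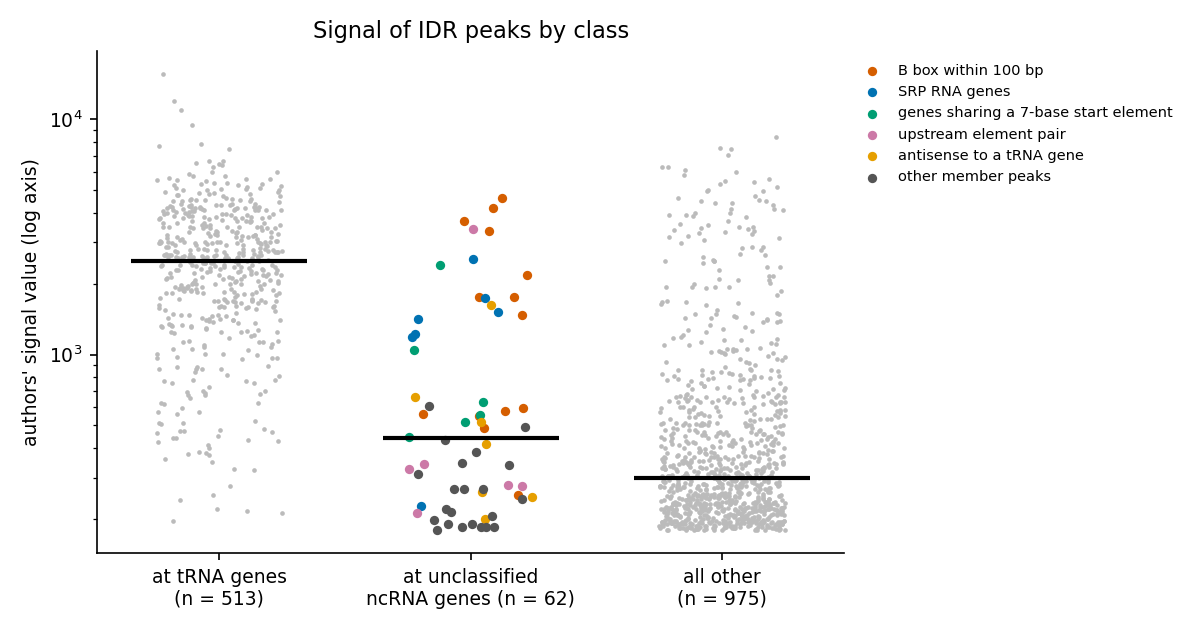
Signal of each IDR peak as the authors gave it, on a log axis, for peaks at tRNA genes, member peaks and all other peaks. Each point is a peak and each black bar the median of its class (2510, 440 and 297). Colours mark the groups of members described in the text, and peaks with a B box and those at SRP RNA genes fill most of the upper part of the middle column.

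In replicate 1 the member peaks ranked 92 to 4095 with a median of 1080, and in replicate 3 they ranked 97 to 3344 with a median of 882. A region with its summit within 100 bp was found in both lists for 58 of the 62 member peaks (93.5%) and for 1421 of the 1550 IDR peaks. Both ranks were 1550 or better for 39 of the 62 member peaks and for 1039 of all IDR peaks. The highest-ranked region within 100 bp had its summit at a median distance of 14 bp from the IDR summit in replicate 1 and 5.5 bp in replicate 3. Replicate 3 gave the better rank for 41 of the 58 peaks found in both. No such count is given here for all IDR peaks, so it is not read as a trait of the members.

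**Figure D2:**
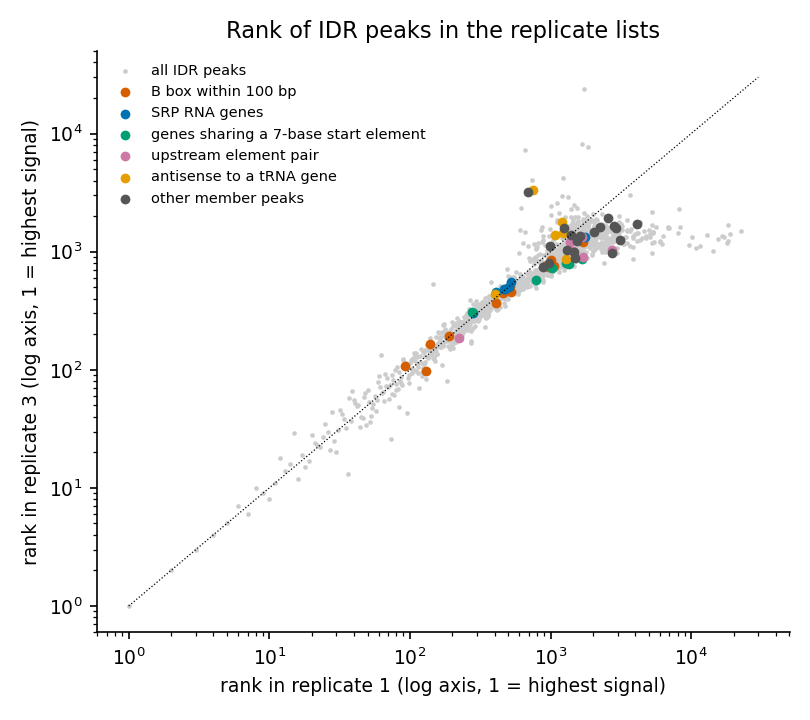
Rank of each IDR peak in the lists of replicate 1 and replicate 3, both on log axes, for peaks with a region in both. Grey points are all IDR peaks and coloured points the 58 member peaks; the dotted line marks equal ranks. The strongest member peaks lie close to the line; weaker ones spread further from it.

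The genes named srpr, for the SRP RNA, that were looked up were all among the members. srpr-2.2 lies in an intron of klp-6, on the opposite strand, and had a signal of 2538, with 484 in replicate 1 (rank 283) and 2192 in replicate 3 (rank 301). srpr-1.2, in an intron of ckb-2 on the same strand, had 1740, with 363 (rank 411) and 1440 (rank 454). srpr-2.1 had 2 summits with signals of 1520 and 1193, the stronger with 312 (rank 469) and 1287 (rank 485). srpr-1.1 also had 2, with 1416 and 1227, the stronger with 309 (rank 475) and 1322 (rank 481). These 4 genes on chromosome III thus held similar ranks in both replicates, from 283 to 485 for their strongest summits. srpr-3 on chromosome V was far weaker, with a signal of 228, 44.6 in replicate 1 (rank 1763) and 191 in replicate 3 (rank 1338).

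The SRP RNA genes differ in how many bases they share, which limits how reads can be placed. srpr-1.1 and srpr-1.2 were 99.3% identical over 295 aligned bases, and srpr-2.1 and srpr-2.2 99.0% over 299. Across these pairs identity was 94.3 to 95.2%, while srpr-3 was 82.6% identical to srpr-1.2. Of the 31-base words within 100 bp of the strongest summit, 18.1% occurred once in the genome for srpr-1.2, 64.9% for srpr-1.1, 70.8% for srpr-2.1, 71.9% for srpr-2.2 and 99.4% for srpr-3. The part of such repeats in the signals was not tested. Also members are R144.16, which overlaps the first 39 bases of srpr-2.2, and F44A2.13, which spans srpr-3. F22H10.10 (signal 185) matched srpr-3 at 95.5% over 44 bases near its start. The bases around the first base of these genes are printed, 40 before it and 40 from it on. They show a run shared by strong and weak sites alike. Capitals mark the longest run that all 6 stretches hold, 15 bases, C09G1.7 (signal 242) included. In C09G1.7 the run begins before the annotated first base, and in the others after it. The best match of C09G1.7 was the snoRNA gene C14E2.12, at 94.7% over 75 bases.
srpr-2.2, chrIII:5031669-5031748, minus strand: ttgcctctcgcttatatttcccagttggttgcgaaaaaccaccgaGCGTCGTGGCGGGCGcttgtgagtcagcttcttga
srpr-1.2, chrIII:4369428-4369507, plus strand: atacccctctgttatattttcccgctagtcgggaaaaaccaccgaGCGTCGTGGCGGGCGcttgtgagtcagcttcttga
srpr-2.1, chrIII:5211180-5211259, plus strand: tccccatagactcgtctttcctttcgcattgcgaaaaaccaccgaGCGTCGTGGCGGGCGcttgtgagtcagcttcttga
srpr-3, chrV:9293593-9293672, minus strand: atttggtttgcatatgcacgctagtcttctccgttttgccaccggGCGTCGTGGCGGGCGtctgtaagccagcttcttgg
C09G1.7, chrX:15964060-15964139, plus strand: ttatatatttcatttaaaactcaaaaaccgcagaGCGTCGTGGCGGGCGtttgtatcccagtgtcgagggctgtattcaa
F22H10.10, chrX:16698091-16698170, plus strand: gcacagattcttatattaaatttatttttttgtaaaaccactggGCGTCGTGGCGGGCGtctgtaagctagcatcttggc

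The IDR summits of these genes lay at various places. The strongest lay 35 bp upstream of the first base of srpr-2.2, 33 bp upstream of that of srpr-2.1 and 11 bp inside srpr-3. The second summit of srpr-2.1 lay 168 bp inside, and at srpr-1.1 the summits lay 72 and 274 bp inside. At srpr-1.2 the IDR summit lay 97 bp inside. The strongest region of each replicate within 100 bp of srpr-1.2 instead had its summit upstream, at -72 bp in replicate 1 (signal 373, rank 398) and at -70 bp in replicate 3 (1466, rank 449). The nearest summits of C09G1.7 and F22H10.10 lay 3 and 62 bp upstream.

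rpr-1, the gene of the RNase P RNA, was the member with a gene name that had the highest signal. It lies at chrI:13463955-13464207 on the plus strand, in an intron of ints-8, a subunit of the Integrator complex, on the opposite strand. Its summit lay 17 bp upstream of the first base. The signal was 3406, with 563 in replicate 1 (rank 224) and 2873 in replicate 3 (rank 187). All 31-base words around its summit occurred once in the genome.

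Of the other noncoding RNAs looked up by name, mrpr-1, the gene of the related RNase MRP RNA, had an IDR summit 24 bp upstream of its first base with a signal of 1918, 368 in replicate 1 (rank 406) and 1578 in replicate 3 (rank 432). It is no member because the summit lies in the promoter window of pcrg-1. yrn-1, the gene of a Y RNA, is of biotype scRNA. The member F55G1.20 runs antisense across its 105 bases and shares its summit, 16 bp inside yrn-1, with a signal of 548. Replicate 1 gave 99.4 there (rank 1052) and replicate 3 gave 478 (rank 749). tts-1 had no IDR peak within 100 bp, but one with a signal of 183 lay 119 bp beyond its last base. Within 100 bp of tts-1 the pooled signal was 84.1, with 20.9 in replicate 1 (rank 6212) and 211 in replicate 3 (rank 1250), while rncs-1 had no region within 100 bp in any list. lfor-1 had no IDR peak within 100 bp either, while lfor-2, 99.0% identical to it over 299 bases, had one with a signal of 277. The pooled list held a region with its summit 96 bp upstream of lfor-1 (signal 146, rank 1892). Neither replicate list held one within 100 bp of lfor-1. Around the lfor-2 summit 20.5% of 31-base words occurred once in the genome, and the part of this repeat in the signals was not tested.

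A B box marked several of the strongest member peaks. The letters GTTCNANNC, searched for on either strand up to 100 bp from the summit, were found at 15 of 62 member peaks (24.2%, 95% Wilson interval 15.2 to 36.2%, counting error only). They were found at 84.2% of peaks at tRNA genes, 30.1% of all other IDR peaks and 8.50% of the 28470 background regions, which are those regions of the pooled list that lie over 100 bp from each IDR summit. The share of the members was above that in background regions and below that of the other IDR peaks. The member peaks were selected and include copies and neighbouring summits, so the interval is not a test of these differences. Among the 31 member peaks of higher signal 13 had the box, and among the 31 of lower signal 2 had it. Member peaks with the box had a median signal of 1467 and those without it 340, with ranges of 252 to 4635 and 179 to 3406 that overlap.

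The 8 member peaks with a B box among the 18 strongest are printed on the strand of the box, from 75 bases before it to 20 after it. They include the 3 highest signals among the members. Like all member peaks, they have no annotated tRNA gene within 100 bp of the summit, because the rule excludes such peaks. Capitals mark the B box GTTCNANNC and, where it occurs, TGGCNNAGT, taken as an A box. The second was found in the stretches printed for T28D6.15, Y57G11C.1146 and F02D10.15. The stretch printed for Y57G11C.1146 begins at the summit, 84 bp beyond the last base, so its boxes lie outside that gene. The B box at Y46E12A.11 is not held in full by the gene. Up to 100 bp from the summit, TGGCNNAGT stood at 6.45% of member peaks, 11.3% of peaks at tRNA genes, 18.4% of other IDR peaks and 2.78% of background regions.
Y69A2AR.38, chrIV:2664950-2665053, plus strand: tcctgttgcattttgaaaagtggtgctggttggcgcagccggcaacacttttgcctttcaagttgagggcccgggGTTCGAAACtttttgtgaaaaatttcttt
K10H10.14, chrII:14496986-14497089, plus strand: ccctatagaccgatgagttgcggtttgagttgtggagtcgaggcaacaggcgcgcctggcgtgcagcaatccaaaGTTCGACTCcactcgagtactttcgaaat
F36H1.17, chrIV:11026135-11026238, minus strand: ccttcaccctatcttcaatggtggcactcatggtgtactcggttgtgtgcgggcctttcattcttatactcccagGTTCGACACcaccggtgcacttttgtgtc
T28D6.15, chrIII:11371402-11371505, minus strand: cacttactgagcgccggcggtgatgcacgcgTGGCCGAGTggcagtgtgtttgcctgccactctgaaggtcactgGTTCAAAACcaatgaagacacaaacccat
Y57G11C.1146, chrIV:14875346-14875449, plus strand: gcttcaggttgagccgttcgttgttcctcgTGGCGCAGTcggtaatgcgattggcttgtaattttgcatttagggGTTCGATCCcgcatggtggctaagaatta
Y46E12A.11, chrIII:1744618-1744721, minus strand: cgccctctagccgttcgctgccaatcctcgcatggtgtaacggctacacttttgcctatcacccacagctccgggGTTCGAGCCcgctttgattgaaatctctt
F02D10.15, chrX:13444432-13444535, plus strand: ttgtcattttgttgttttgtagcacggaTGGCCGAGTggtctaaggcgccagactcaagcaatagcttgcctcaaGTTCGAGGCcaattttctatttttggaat
T20B12.12, chrIII:7387599-7387702, plus strand: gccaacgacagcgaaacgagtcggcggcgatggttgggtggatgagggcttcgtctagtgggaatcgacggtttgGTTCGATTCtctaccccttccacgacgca

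Y69A2AR.37 and Y69A2AR.38, which overlap on opposite strands of chromosome IV, shared the strongest member peak, with a signal of 4635. Replicate 1 gave 781 (rank 92) and replicate 3 gave 3510 (rank 108). K10H10.14 on II followed with 4197, from 708 (rank 130) and 3581 (rank 97). F36H1.17 on IV had 3695, from 688 (rank 140) and 3064 (rank 165), and mir-51 lay 125 bp from its summit. Each of these was high in both replicates.

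T28D6.10, T28D6.13 and T28D6.15 lie in or across an intron of the tubulin gene tba-7 and shared a summit with a signal of 3368, from 609 (rank 190) and 2842 (rank 192). Y57G11C.1146 had 2174, from 366 (rank 407) and 1875 (rank 365), with its summit 84 bp beyond the last base of the gene. Y46E12A.11, at 53 bp the shortest member, had 1757, from 323 (rank 461) and 1475 (rank 446). F02D10.13 and F02D10.15, on opposite strands of X, had 1749, from 268 (rank 521) and 1422 (rank 458). T20B12.12, in an intron of trd-1, had 1467, from 271 (rank 517) and 1195 (rank 509). Each of these 5 sites held a close rank in both replicates.

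The summit kept to 1 side of the box. On the strand of the box, the summit lay upstream of it in 15 of 15 member peaks, against 90.7% of peaks at tRNA genes that have the box, 83.3% of the other IDR peaks and 53.1% of background regions. The median position was -78 bp from the centre of the box for the members, -79 bp at tRNA genes, -60 bp at other IDR peaks and -6 bp in background regions. From 70 to 95 bp upstream lay 9 of the 15 member summits, 324 of 432 at tRNA genes, 39.9% of those of other IDR peaks and 13.6% of those of background regions. At the printed sites the box is on the strand of the named gene, except at Y69A2AR.38, where it is on that of Y69A2AR.37. A run of TTTT within 40 bases after the box was found at 7 of the 15 (46.7%), against 95.4% at tRNA genes, 62.8% at other IDR peaks and 44.0% in background regions.

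**Figure D3:**
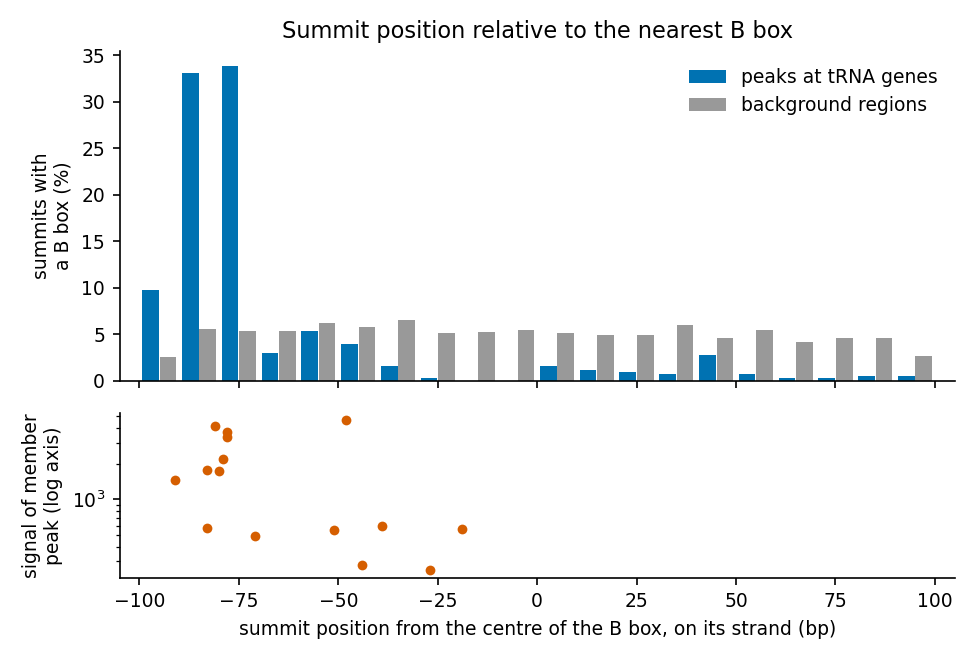
Position of the summit from the centre of the nearest B box within 100 bp, in bp on the strand of the box (negative is upstream). The upper panel gives the percent of summits per 10 bp for peaks at tRNA genes and background regions, and the lower panel the signal of the 15 member peaks on a log axis. Member summits all lie at negative positions, and 7 of the 8 strongest lie between -91 and -78 bp.

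Similarity to annotated tRNA genes was found for few of these. At 80% identity over 50 bases or more, 36 of the 71 members matched some other small noncoding or ncRNA gene, 9 matched a tRNA gene and 11 a tRNA gene or tRNA pseudogene. Matches were searched for members only. No share of all ncRNA genes stands beside these counts, so they are not read as a trait of the members. Of the 11, 7 overlap a tRNA gene outright. The other 4 are F02D10.15, 95.6% identical over 68 bases to F02D10.t3, F02D10.13, 98.3% identical to it over 60, and Y69A2AR.37 and Y69A2AR.38, 80% identical over 60 bases to the tRNA pseudogene Y69A2AR.t3. At 70% identity T28D6.15, Y40A1A.6 and T22B2.9 also matched a tRNA pseudogene, at 75.5, 73.2 and 72.1% over 53, 56 and 68 bases. K10H10.14, F36H1.17, Y57G11C.1146, Y46E12A.11 and T20B12.12 did not match one. Only the bases of the annotated genes were compared. The box beyond Y57G11C.1146 was thus not compared, and that of Y46E12A.11, a gene of 53 bp, not in full.

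A family of short genes shared the letters GGTCCGG within the first 30 bases. The sequence occurs there in 11 of 7762 ncRNA genes (0.142%), and 6 of the 11 are members. No tRNA gene holds it there, but 2 of 346 snoRNA genes and 1 of 129 snRNA genes do. F08G2.13 had the highest signal of the family, 2395, with 491 in replicate 1 (rank 276) and 2172 in replicate 3 (rank 309). W01D2.8, in an intron of W01D2.3, had 1042, from 155 (rank 790) and 894 (rank 577). C18C4.17 had 627, from 104 (rank 1027) and 515 (rank 724). These 3 summits lay 46, 8 and 15 bp upstream of the first base.

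The other family members were weaker. M163.12 had 553, from 64.8 (rank 1350) and 429 (rank 792). CD4.17 had 517, from 69.5 (rank 1289) and 421 (rank 802). CD4.18 had 445, from 47.7 (rank 1665) and 355 (rank 875). The last 2 lie in introns of CD4.11 on its strand. The summits lay 20 and 32 bp inside M163.12 and CD4.17 and 17 bp upstream of CD4.18. Of the 5 ncRNA genes with the letters that are no members, F08G2.12, B0361.13, M163.15 and CD4.19 had an IDR summit 107, 121, 130 and 182 bp away, with signals of 597, 2666, 633 and 445. The summit near CD4.19 is that of CD4.18, and the summit near B0361.13 lay 63 bp from mir-2214. W03G11.8 had none within 250 bp.

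The family is printed from 60 bases before to 30 bases from the first base on, because a second shared run precedes the start. Capitals mark GGTCCGG and, where present, TATATA, which begins 30 to 32 bp before the first base in 5 of the 6 and is not found in CD4.17. In the 100 bases before the gene it occurs in 8 of 71 members (11.3%), 3.49% of all ncRNA genes, 15.5% of snRNA genes and 2.12% of tRNA genes. Both motifs were chosen after the sequences were seen.
F08G2.13, chrII:13834494-13834583, minus strand: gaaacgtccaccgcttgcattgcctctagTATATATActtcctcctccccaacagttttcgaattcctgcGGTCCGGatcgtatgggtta
W01D2.8, chrII:14801398-14801487, minus strand: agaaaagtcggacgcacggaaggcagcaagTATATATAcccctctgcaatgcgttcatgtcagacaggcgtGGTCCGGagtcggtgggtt
C18C4.17, chrV:5576162-5576251, plus strand: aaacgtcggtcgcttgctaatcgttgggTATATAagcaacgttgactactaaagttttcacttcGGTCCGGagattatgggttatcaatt
CD4.18, chrV:5587225-5587314, plus strand: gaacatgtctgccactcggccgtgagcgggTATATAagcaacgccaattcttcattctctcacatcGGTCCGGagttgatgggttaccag
CD4.17, chrV:5588019-5588108, plus strand: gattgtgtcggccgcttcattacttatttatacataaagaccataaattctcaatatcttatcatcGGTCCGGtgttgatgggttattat
M163.12, chrX:14477485-14477574, plus strand: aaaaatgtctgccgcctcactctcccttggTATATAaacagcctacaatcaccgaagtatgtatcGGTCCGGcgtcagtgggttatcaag

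A different set shared a pair of sequences upstream. AACCCG followed by TGTCGG, with 5 bases between them, stood in the 100 bases before the first base of 6 of the 71 members. The same spacing was found in 11 of 7762 ncRNA genes (0.142%), 19 of 346 snoRNA genes (5.49%), 13 of 129 snRNA genes and 0 of 612 tRNA genes. Near the summit, up to 100 bp away, it stood at 5 of 62 member peaks (8.06%), 1.44% of other IDR peaks, 0.200% of background regions and 0 of 513 peaks at tRNA genes. The members are rpr-1, ZK265.11, lfor-2, T19C4.16, T19C4.11 and K08B5.8. Of these, T19C4.11 and T19C4.16 overlap on the same strand. The pair was chosen after the sequences were seen, and 3 of the genes are printed from 75 bases before to 10 bases from the first base on, with the pair in capitals.
lfor-2, chrII:14641606-14641690, minus strand: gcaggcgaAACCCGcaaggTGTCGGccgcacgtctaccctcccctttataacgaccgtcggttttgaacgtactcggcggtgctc
T19C4.11, chrV:11176868-11176952, plus strand: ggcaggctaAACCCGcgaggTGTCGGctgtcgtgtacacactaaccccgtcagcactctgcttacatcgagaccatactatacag
K08B5.8, chrX:16564655-16564739, plus strand: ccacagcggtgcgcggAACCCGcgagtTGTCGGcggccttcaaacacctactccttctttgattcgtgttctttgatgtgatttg

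Apart from rpr-1 these peaks were in the weaker part of the list. T19C4.11 and T19C4.16, in an intron of gpa-1, shared summits with signals of 342 and 278, and the stronger had 46.7 in replicate 1 (rank 1693) and 330 in replicate 3 (rank 909). T19C4.11 is identical over 178 bases to the snoRNA gene T19C4.12, 1190 bp from the summit. ZK265.11, which overlaps an untranslated region of ceh-8, had 326, from 57.4 (rank 1447) and 284 (rank 1009). lfor-2, in an intron of atgp-2, had 277, from 62.6 (rank 1377) and 217 (rank 1217). K08B5.8 had 213, from 47.5 (rank 1671) and 192 (rank 1331). The summits of ZK265.11 and K08B5.8 lay 9 and 10 bp upstream, and that of lfor-2 lay 33 bp inside. Of the ncRNA genes with this spacing that are no members, K07C10.6 had an IDR signal of 359 but also a snoRNA gene 18 bp from the summit, and F44E5.16, lfor-1, T28D6.14 and F36H12.65 had no IDR summit within 250 bp.

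At 7 members the gene runs antisense across a tRNA gene. Their summits lay 103 to 109 bp beyond the tRNA gene, just past the distance that the rule excludes, and 174 to 181 bp downstream of its first base. Of all 7762 ncRNA genes, 351 overlap a tRNA gene. F41D9.15 was the strongest, with a signal of 1628, 369 in replicate 1 (rank 404) and 1553 in replicate 3 (rank 438). T22A3.11 had 657, from 164 (rank 754) and 84.2 (rank 3344). Y105C5A.1276 had 517, F15A8.17 had 417, F49C5.13 had 260, M03A1.12 had 248 and C06E4.20 had 201. Each of these 7 had another IDR summit 199 to 208 bp away, which lay 20 to 34 bp from a tRNA gene and was the stronger of the pair. Its signal was 3806 beside F41D9.15, 2717 beside T22A3.11, 2121 beside Y105C5A.1276 and 1995 beside F15A8.17. Beside F49C5.13, M03A1.12 and C06E4.20 it was 731, 1914 and 1128. Such a second summit within 250 bp was found for 21 of 62 member peaks (33.9%) and 28.1% of all IDR peaks, with a median distance of 205 bp in both. The part of the tRNA genes in the signals of these 7 members was not tested.

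In all, 11 member peaks had a small noncoding gene over 100 and up to 250 bp away, 8 of them a tRNA gene. The eighth is F28F5.10, across a coding exon of lim-8 on the opposite strand, with F28F5.t1 118 bp from its summit. Its signal was 435, with 182 in replicate 1 (rank 690) and 87.2 in replicate 3 (rank 3176). Like the antisense genes above, F28F5.10 had a stronger IDR summit nearby, 214 bp away and 24 bp from F28F5.t1, with a signal of 2218. The part of F28F5.t1 in the signal of F28F5.10 was not tested. The remaining 3 are F36H1.17, F09A5.11 with mir-54 at 245 bp, and B0280.22, beside sls-2.16. The other 51 member peaks lay 619 to 150473 bp from any such gene, with a median of 17804 bp. Their median signal was 486, against 417 for the 11.

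A few further members were copies of each other. K02D3.4 and K02D3.5 occupy the same 97 bases of X on opposite strands and were 92.4 to 93.2% identical to T22B2.9 and T22B2.12, another antisense pair on X. The signals at these sites were 594, from 112 (rank 977) and 488 (rank 742), and 561, from 126 (rank 908) and 478 (rank 750). The antisense pair F16A11.7 and F16A11.9, in an intron of ppfr-1, matched the antisense pair T13H2.7 and T13H2.9 without a mismatch over 150 to 153 bases. Their strongest signals were 385, from 54.5 (rank 1495) and 339 (rank 889), and 344, from 55.6 (rank 1478) and 285 (rank 1002). The antisense RNA gene anr-20 lies within 100 bp of the F16A11 summits. At these 2 sites 51.5% and 63.2% of 31-base words around the summit occurred once in the genome. Over all 71 members every such word occurred once for 44, and under 50% did for 3, srpr-1.2, lfor-2 and K02E11.15.

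The 22 peaks outside the coloured groups, grey in the plot of signal by class, had the lowest median of the sets drawn there. They include the F16A11 and T13H2 copies and C09G1.7 and F22H10.10, which hold the run shared with the SRP RNA genes. Their signal ran from 179 to 605 with a median of 231, and 8 of the 22 ranked 1550 or better in both replicates. F09E10.13, in an intron of F09E10.5, was the strongest, with 605, from 130 (rank 886) and 486 (rank 744). F52D10.7 had 490, from 113 (rank 976) and 423 (rank 798). Several had no region with a summit within 100 bp of the IDR summit in a replicate. T14G8.5 (signal 190) and W06H8.16 (185) had none in replicate 1, and T28F4.7 (185) had none in either, though the 1550 highest regions of replicate 3 include a summit within 100 bp of the gene. F15A8.17, one of the antisense genes above, had none in replicate 3.

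The ranks of a few members differed by several times between replicates. F28F5.10 and T22A3.11, both beside a tRNA gene, ranked 4.60 and 4.44 times better in replicate 1. C07H6.15 and C07H6.17 shared a summit that ranked 2743 in replicate 1 and 971 in replicate 3, a ratio of 2.82. T26A5.10 ranked 3112 and 1256 and K03D7.12 ranked 4095 and 1708. Over the 67 members found in both lists the median ratio of the larger to the smaller rank was 1.28.

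The members ran from 53 to 14770 bp in length, with a median of 149 bp and quartiles of 90.5 and 215 bp. All ncRNA genes ran from 17 to 14770 bp, with a median of 140 bp and quartiles of 95 and 165 bp. Lengths of 100 bp or less held 27 members (38.0%, against 27.3% of ncRNA genes), and lengths from over 100 to 200 bp held 24 (33.8% against 54.4%). From over 200 to 300 bp there were 15 (21.1% against 13.9%), a class that holds the SRP RNA genes, and above 300 bp there were 5. A longer gene offers more room for a summit, so the rule itself acts on length. The 4 shortest were Y46E12A.11 (53 bp), W06H8.16 (56 bp), F09A5.11 (59 bp) and F02D10.13 (63 bp). The 4 longest were C30E1.9 (14770 bp), Y69A2AR.37 (587 bp), B0280.22 (550 bp) and R03E9.10 (334 bp). C30E1.9 had a signal of 190, from 30.1 (rank 2942) and 154 (rank 1601), and its summit lay 1735 bp into the gene. R03E9.10 had 197, from 39.0 (rank 2036) and 172 (rank 1464). The median content of G and C was 50.6% in members and 43.8% in all ncRNA genes.

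**Figure D4:**
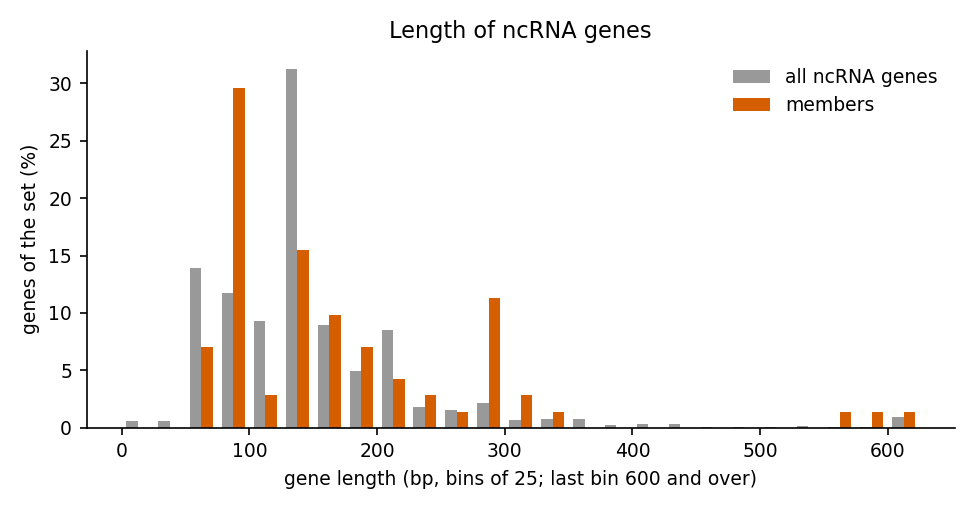
Length of the 71 members and of all 7762 ncRNA genes, as percent of the genes of each set in bins of 25 bp, with 600 bp and over in the last bin. The fullest bin of the members is 75 to 100 bp (21 genes), followed by 125 to 150 bp (11) and 275 to 300 bp (8), while the fullest bin of all ncRNA genes is 125 to 150 bp (31.3%).

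The places of members relative to protein-coding genes were near those of all ncRNA genes. No overlap with a protein-coding gene was found for 44 of 71 (62.0%, against 55.5% of all ncRNA genes). In introns lay 23 (32.4% against 34.1%). In the introns 12 members were on the strand of the host gene and 11 on the opposite strand, while all intronic ncRNA genes were split 944 to 1699. T28D6.15, F28F5.10 and B0280.22 overlap coding exons of tba-7, lim-8 and glr-2, and ZK265.11 overlaps the untranslated region of ceh-8. By chromosome, X held 23 members (32.4%, against 32.5% of ncRNA genes) and III held 16 (22.5% against 9.84%). V held 12, and I, II and IV held 7, 6 and 7.

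The summit nearest to the first base, counted as position 0, lay upstream of 35 members, inside 31 and beyond the last base of 5. The median was 4 bp, and that of the 35 upstream was -32 bp. With the rule applied to the 1550 highest regions of replicate 1 the median was -26 bp, and to those of replicate 3 it was 0 bp. Its sign was thus not stable between these lists, which hold only part of the same genes. For the members themselves, regions matched to the strongest summit had a median of 8 bp in replicate 1 (68 genes) and 5 bp in replicate 3 (69 genes). Within 50 bp of the first base, on either side, lay 37 summits, 23 of them upstream. Of the 27 members of 100 bp or less 18 had the summit upstream, and of the 44 longer ones 17 did. The rule allows a summit at most 100 bp upstream, while the room inside a gene grows with its length. The rule itself thus acts on these counts and on the median of the upstream summits, and no preference is read from them.

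**Figure D5:**
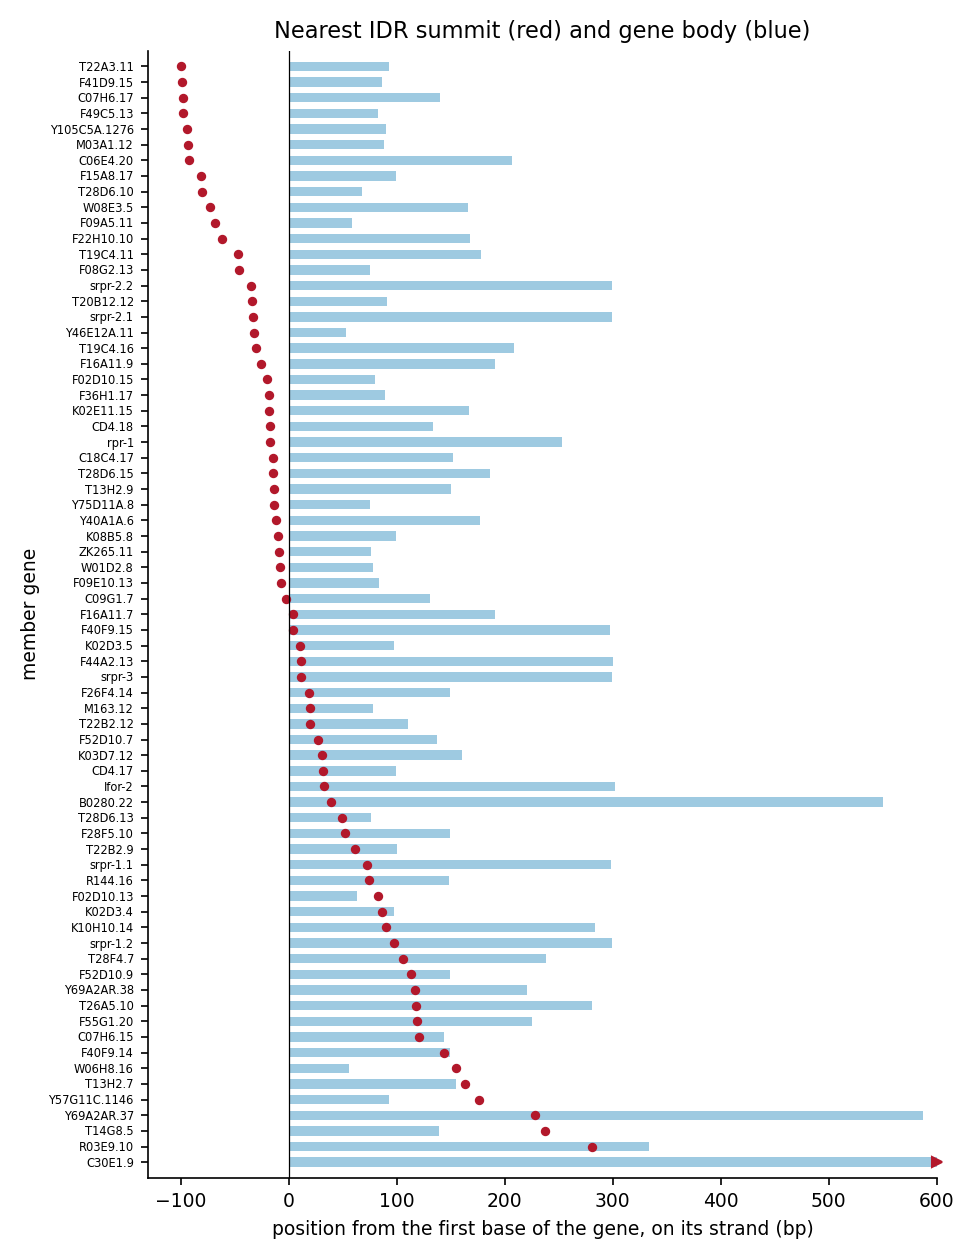
Nearest IDR summit (red points) and gene body (blue bars) of each of the 71 members, in bp from the first base on the strand of the gene, sorted by position. The axis ends at 600 bp; the summit of C30E1.9 at 1735 bp is drawn as an arrow. Of the summits, 35 lie upstream, and those from -100 to -81 bp include the 7 genes antisense to a tRNA gene.

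At the edge of the rule, T22A3.11 and W06H8.16 were kept with a summit 100 bp from the gene, and T14G8.5 and F41D9.15 with one at 99 bp. Of the ncRNA genes just outside, the nearest were F02H6.72 (signal 509), then K11C4.11 with its summit at 104 bp (222) and F08G2.12 at 107 bp (597). When the rule was applied to the 1550 regions of highest signal in each replicate alone, replicate 3 gave 77 genes, 56 of them members, and replicate 1 gave 97, 46 of them members. Both lists held 42 of the 71 members and neither held 11.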

How the data were processed

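ChIP-seq peak lists for build ce11 from 2 biological replicates of 1 group were used. Per the deposited file descriptions, the authors made a ranked list of peaks and background for either replicate and for their pool as input to IDR. Aligner, peak caller and IDR threshold are not given in the sources used here. The deposited signal value has no stated normalization and was used within a list only. Summits were taken from the deposited summit offset.

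Genes, biotypes and bases came from RefSeq WBcel235 (WormBase release 298). The members, the named genes and the lists were chosen with earlier results of these data known. Replicate ranks are those of the highest-signal region with a summit within 100 bp. Sequences were compared with blastn 2.17.0 (word size 7, non-overlapping genes, 80% identity over 50 bases). With 1 group and members chosen from the peaks, no test was made. The rule was tested on simulated summits. Named were the 15 strongest members, the longest and shortest, those differing most in rank, those missing in a replicate, those with a gene name, family members and those at the edge. Intervals cover counting error only. Alternatives were other distances and promoter windows, the stronger 50% of the peaks, the pooled list, each replicate and merged sites. Software was scipy 1.17.1, pandas 2.3.3, matplotlib 3.10.9 and numpy 2.4.6 under Python 3.11.15.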

Additional observations from a re-analysis of the deposited data

How the results depend on the processing

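Of 89 values under another setting, 53 moved by less than the spread between replicates, or for counts by less than 1.5 times, 34 moved further and 2 turned sign; the cause was not tested. The 34 include all 9 values of the median signal, whatever their size, since it has no spread between replicates to be held against, and 25 others. With summits up to 250 bp away there were 131 genes at 111 peaks, with a median length of 104 bp, an intron share of 38.2%, a median signal of 333 and a B box at 20.7% of peaks. With 25 bp the median position was 32.5 bp, the signal 486 and the B box share 27.9%. With 250 bp kept from small noncoding genes the signal was 486 and the B box share 27.5%. With a promoter window from 200 bp upstream the intron share was 24.8%, the signal 365 and the B box share 21.3%. With no promoter rule there were 107 genes, an intron share of 24.3%, a signal of 350 and a B box share of 20.7%. The stronger 50% of the IDR peaks gave 33 genes at 28 peaks, a length of 97 bp, a position of -7 bp, an intron share of 36.4%, a signal of 1442 and a B box share of 42.9%. The pooled list gave a signal of 450, and 1 summit per merged site gave 466 and a B box share of 30%. Matching regions within 50 bp left 74.2% of member peaks with a region in both replicates. Leaving out the 9 genes that overlap a small noncoding gene, a setting added after the data were seen, gave a signal of 445.

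The list of 1 replicate in place of the IDR list gave a median length of 107 to 144 bp, a position of -26 to 0 bp, an intron share of 36.4 to 40.2%, a B box share of 18.9 to 22.2% and a region in both replicates for 78.9 to 94.4% of peaks, the first value of each pair but the intron share from replicate 1. Signal was not recomputed there, since each list has its own scale. No paired analysis was possible because there is 1 group. With 2 replicates, no read depth and no control libraries analysed here, a gene without a peak is not shown to be unbound.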
